A study of Cannabis sativa with 6 samples.

Results

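A group of 214 genes, of 29777 gene rows counted, was active in male flowers of hemp (Cannabis sativa) and close to silent in female flowers, but at a much lower level in 1 of the 3 male libraries than in the other males. The libraries were 3 male flower libraries, from the Nebraska locations that the labels write as Merick, Knox and Madison, and 3 female flower libraries from the same locations. The series describes the plants as feral hemp. All groups were grown alike in pots in a growth chamber and greenhouses, with 16 h of light for 10 weeks and then 11 h to start flowering, and no treatment was given. Messenger RNA levels in female and male flowers were the stated subject of the study. The genotype, the age of the flowers, and whether a library held 1 plant or a pool were not stated, so differences between libraries measure only the spread between these libraries, which may be technical.

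The members were chosen by their measured levels in CPM, the reads of a gene scaled to all reads assigned to genes in that library. A member had under 1 CPM in each of the 3 female libraries, at least 20 CPM in both the Knox and the Madison male, and a Merick male level of at most 25% of each of those males. Since these values chose the genes, the male excess and the low Merick level are given as descriptions and were not tested. The label of the group, male-restricted genes low in the Merick male, states the rule and nothing more. CPM are not divided by transcript length, so the order of genes below is an order of reads and not of transcripts.

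Hemp is mainly dioecious, with female and male flowers on separate plants. The male flower consists largely of stamens, whose anthers form the pollen. Within an anther the tapetum feeds the developing microspores and supplies much of the pollen wall, and many flowering plant genes are read only in the tapetum or in pollen, in short windows of anther development. No role can be given to the individual genes here: the gene identifiers come with no description, and none of the 214 carries a common name in the gene table used. For the same reason the labelled tissue could not be checked against markers of anther, pollen or pistil.

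Gene counts summed to 46045338 in the Merick male, 40334171 in the Knox male and 41036739 in the Madison male, and to 26945432 to 38672535 in the female libraries. The Merick male, which had the lowest member levels of the males, was thus the most deeply read library of all. It stood apart from the other males. On log2(CPM + 0.1) over the 24265 genes with a count, it correlated at 0.89 with the Knox male and 0.91 with the Madison male, which correlated at 0.96 with each other. Its correlation with the females was also 0.89. Leaving the Merick male out of the rule gave 320 male-restricted genes, of which the 214 made up 66.9%.

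The members together took 0.349% of the gene counts of the Merick male, against 5.76% in the Knox male and 5.84% in the Madison male. In the female libraries they took 0.00315% (Merick), 0.00413% (Knox) and 0.00243% (Madison). Their summed level was 3491 CPM in the Merick male, 57613 CPM in the Knox male and 58396 CPM in the Madison male, and 31.5, 41.3 and 24.3 CPM in the Merick, Knox and Madison females. The Knox and Madison males lay close together, the Merick male lay at 6.06% of the Knox and 5.98% of the Madison male, and its sum was still 84.5 times that of the highest female. The other 106 male-restricted genes, which the rule left out for their Merick level, summed to 14042 CPM in the Merick male, 14403 CPM in the Knox male and 17569 CPM in the Madison male. These sums hide that most of the 106 were also lower in the Merick male. Its level was at a median of 55.6% of the lower other male, with 83 genes below both other males and 17 above both. In bulk flower RNA, fewer cells of a type and less RNA per cell cannot be told apart.

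**Figure D1:**
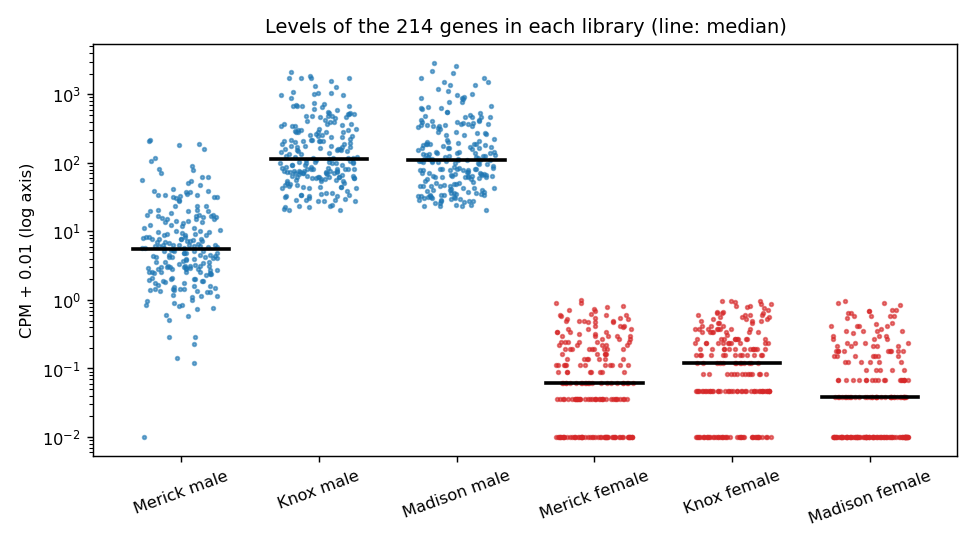
CPM of each of the 214 genes in each library, on a log axis after adding 0.01, with males in blue, females in red and a black line at the median of CPM + 0.01. The members' median was 5.47 CPM in the Merick male, 114 CPM in the Knox male and 109 CPM in the Madison male, and it lay under 0.12 CPM in each female library, where the points at the bottom are genes with 0 counts.

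The 10 members with the most reads, ranked by the lower of their Knox and Madison male levels, stood among the strongly read genes of those flowers. LOC115704244 had 209 CPM in the Merick male, 2118 CPM in the Knox male and 2630 CPM in the Madison male, against 0.103, 0.705 and 0.0286 CPM in the Merick, Knox and Madison females. LOC115715977 had 158, 1735 and 2893 CPM in the Merick, Knox and Madison males and 0.103, 0.482 and 0.0571 CPM in the females of the same order. LOC115705144 had 212, 1728 and 2183 CPM in the males and 0.233, 0.631 and 0.0286 CPM in the females, again in the order Merick, Knox, Madison. In these 3 genes the Knox and Madison males stood between 8.14 and 18.3 times above the Merick male, which lay far above every female, and no female approached a male.

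LOC115695476 and LOC115700926 reached similar levels in the Knox and Madison males but were lower still in the Merick male. LOC115695476 had 34.9 CPM in the Merick male, 1733 CPM in the Knox male and 1742 CPM in the Madison male, with 0.776, 0.742 and 0.257 CPM in the Merick, Knox and Madison females. LOC115700926 had 30.97, 1856 and 1703 CPM in the Merick, Knox and Madison males, with 0.310, 0.668 and 0.0286 CPM in the females of that order. The Merick male thus stood at 2.02% and 1.82% of the lower of the other males for these genes, against 9.88% for LOC115704244.

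LOC115722684 lay between them, with 71.3, 1746 and 2014 CPM in the Merick, Knox and Madison males and 0.336, 0.260 and 0.0571 CPM in the females. LOC115720747 had 191 CPM in the Merick male, 1058 CPM in the Knox male and 1210 CPM in the Madison male, and 0.336, 0.260 and 0.685 CPM in the Merick, Knox and Madison females. Its Merick level was 18.1% of the Knox level, the highest share among the 11 members at 1000 CPM or more in both other males. LOC115723474, LOC115699721 and LOC115705237 completed the 10, with 182, 119 and 108 CPM in the Merick male and 1045 to 1581 CPM in the Knox and Madison males. LOC115705144, LOC115704244, LOC115720747 and LOC115723474 were also the 4 members with the highest Merick level. The rule capped the Merick level of a member at a share of each other male. A member with a high Merick level thus had to be high in both other males, and this overlap follows at least in part from the rule.

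**Figure D2:**
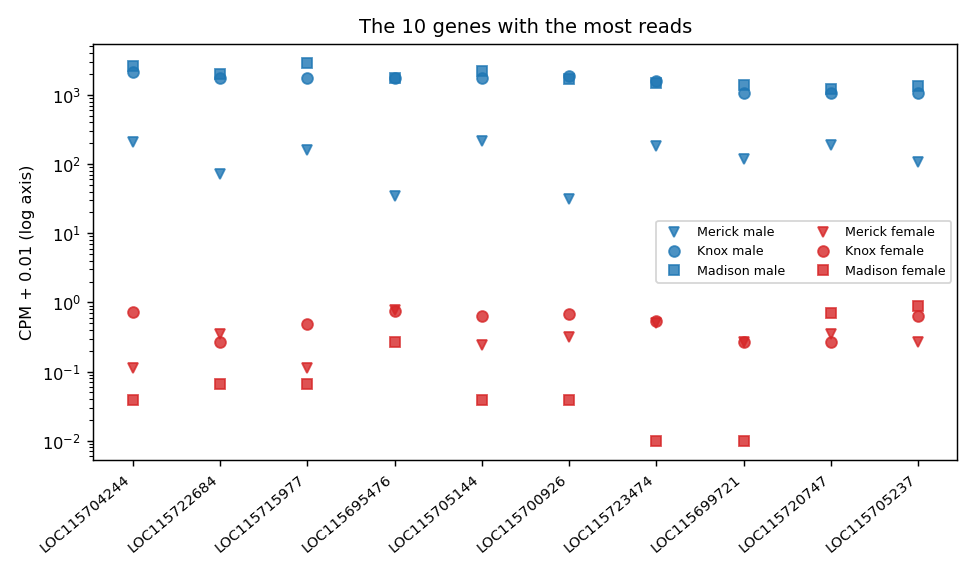
CPM of the 10 members with the most reads in each of the 6 libraries, on a log axis after adding 0.01, with males in blue and females in red. In all 10 the Merick male (30.97 to 212 CPM) lies between the other males and the females, and the Madison female had 0 counts for LOC115723474 and LOC115699721.

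Members filled a visible part of the upper ranks of the Knox and Madison males only. The rule held each member in the Merick male to at most 25% of both other males. Their absence from its upper ranks thus follows at least in part from the rule. Of the 50 genes with the highest CPM in a library, 0 were members in the Merick male, 9 in the Knox male and 10 in the Madison male. Of the 500 highest, 0 were members in the Merick male, 53 in the Knox male and 54 in the Madison male. The 25 members at 500 CPM or more in both the Knox and Madison males, and the 56 between 20 and 50 CPM in the lower of the 2, show the width of the range.

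How low the Merick male lay differed widely between members. Its level was at a median of 5.04% of the lower of the other males, with 1.64% at the 10th and 15.6% at the 90th percentile. In all, 11 members lay at or under 1%, 95 above 1% and up to 5%, 42 above 5% and up to 10%, and 66 above 10%. The share read against the Knox male and the share read against the Madison male ordered the members alike (Spearman's rho 0.90 over 214 genes, a description, since both shares contain the Merick level). Across members, levels in the Knox and Madison males were ordered alike too (rho 0.92), and Merick levels followed those of the Knox (rho 0.71) and Madison male (rho 0.73) less closely. These values are across genes of single libraries, whose lengths and the limits of the rule they share.

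The median share varied little between groups of members ordered by how strongly they were read. Single members varied more. The 11 members at 1000 CPM or more in both other males lay at 1.82% to 18.1% of the lower of these. In 4 groups of 53 or 54 members ordered by Knox male level, the median Merick level was 5.36%, 4.18%, 5.08% and 3.66% of the Madison male level, from the least to the most read group (rho -0.10 between the Knox level and this share, over 214 genes).

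The lowest shares belonged mostly to genes of moderate level. LOC115719348 had 0 counts in the Merick male and in every female, against 64.2 CPM (2590 counts) in the Knox male and 26.2 CPM (1076 counts) in the Madison male. Set against a floor of 3 counts in the Merick male, it was 986-fold lower there than in the Knox male and 402-fold lower than in the Madison male. The lower ends of exact binomial 95% intervals of these ratios were 801 and 327, and they cover counting error only. LOC115719348 was the 1 member whose Merick male level did not exceed every female.

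LOC115697562 had 0.109 CPM (5 counts) in the Merick male, 61.6 CPM in the Knox male and 28.02 CPM in the Madison male, with 0 counts in every female. LOC115704562 had 0.130 CPM (6 counts), 32.7 CPM and 43.2 CPM in the Merick, Knox and Madison males and 1 count in all females, in the Merick female. LOC115709528 had 0.282 CPM (13 counts), 60.1 CPM and 87.8 CPM in the same male libraries, and 1 count in all females, in the Knox female. These genes were read in the Merick male at or near the few counts seen in females, where a fold is poorly fixed by counting.

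LOC115707597 differed from them in its high level. It had 1.93 CPM (89 counts) in the Merick male, 1340 CPM in the Knox male and 421 CPM in the Madison male, and 0, 0.408 and 0.286 CPM in the Merick, Knox and Madison females. Its Merick level was 0.459% of the Madison level, and the Knox and Madison males themselves differed by a factor of 3.19.

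The limit of 25% cut through a continuous range. Just inside it lay LOC115702742 (24.9% of the lower other male), LOC115701031 (23.9%), LOC115722353 (23.2%) and LOC115720480 (23.1%). Just outside lay LOC115707021 (25.1%), LOC115695321 (25.2%), LOC115720756 (25.8%) and LOC115724845 (25.97%). Of the 106 genes left out, 9 lay at 30% or less, 83 were below both other males in the Merick male, and 17 were above both. At the lower limit of 20 CPM in the Knox and Madison males, LOC115699648, LOC115724969, LOC115710471 and LOC115706984 lay just inside, at 20.2 to 21.3 CPM in the lower of the 2. LOC115706727, LOC115709376, LOC115703731 and LOC115708615 lay just outside, at 19.06 to 19.8 CPM.

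**Figure D3:**
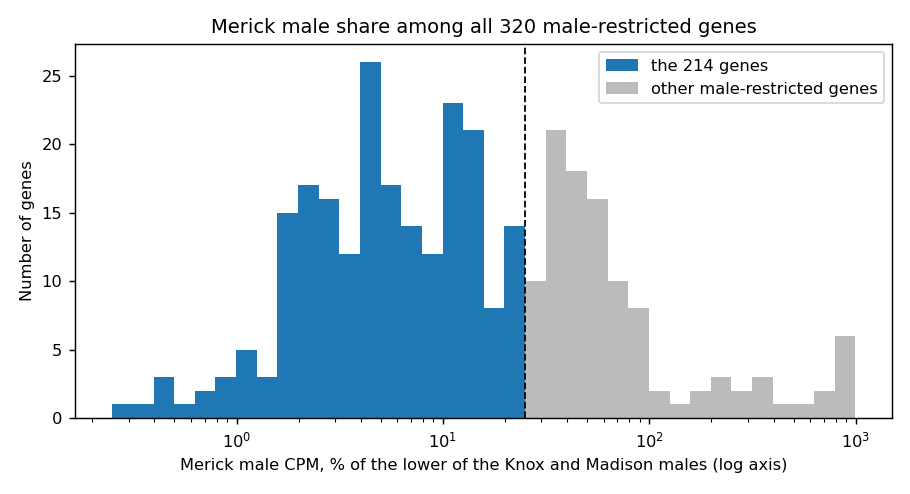
Histogram of the Merick male level as a percentage of the lower of the Knox and Madison male levels (log axis) for the 320 male-restricted genes, with the 214 members in blue, the other 106 in grey, and a dashed line at the limit of 25%. The members lie from 0% to 24.9%, with the 1 gene at 0% drawn in the lowest bin, and the grey genes follow without a gap and reach 4940%, with 4 genes above the last bin drawn in it.

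The Knox and Madison males were close to each other over the set. The rule did not fix their order, but its minimum in both left out genes low in only 1 of them. Over all genes with a count these males correlated at 0.96. Their ratio, Knox over Madison, had a median of 0.996, with 106 members higher in the Knox male and 108 higher in the Madison male. It lay within a factor of 2 for 189 members (88.3%), and for 84 of the 106 other male-restricted genes (79.2%). With 1 library each there is no test of this difference.

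The largest Knox excess was in LOC115711440, with 155 CPM in the Knox male and 42.01 CPM in the Madison male (5.91 CPM in the Merick male). LOC115709421 had 375 and 104 CPM, and LOC115723504 had 92.5 and 27.8 CPM, in the Knox and Madison males. The largest Madison excess was in LOC115718856, with 677 CPM in the Knox male and 1500 CPM in the Madison male (91.3 CPM in the Merick male). LOC115714334 had 404 and 891 CPM, and LOC115712265 had 27.7 and 60.1 CPM, in the Knox and Madison males.

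Nearly all members were read in the Merick male above the female level. The Merick level was above every female for 213 of 214 members. The rule did not require this, but it held every female under 1 CPM, so even a low Merick level could exceed them. Over the 19276 genes tested between the sexes, which had no such female limit, the Merick male was above every female for 38.3%. Among the 197 members with a count in some female, the Merick level was a median of 36.9 times the highest female, and at least 10 times for 161. Of the members, 197 reached 1 CPM in the Merick male, 39 reached 20 CPM and 7 reached 100 CPM. The 17 members under 1 CPM there stood at 23.6 to 93.9 CPM in the lower of the other males.

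Female libraries held a thin scatter of reads of these genes: 1217 counts over all members in the Merick female, 1113 in the Knox female and 852 in the Madison female. Members with 0 counts numbered 58, 46 and 89 in the same order, and 17 members had 0 counts in all females. Those 17 had 0 to 7.62 CPM in the Merick male, 22.9 to 93.9 CPM in the Knox male and 23.6 to 129 CPM in the Madison male. Among the 197 with a female count, the highest female was Merick for 61, Knox for 99 and Madison for 37. In the Knox female, the least deeply read, 1 count was 0.0371 CPM, against 0.0259 (Merick) and 0.0286 (Madison). Where counts were few, this order thus depended on depth. The source of the female reads was not tested.

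The same low Merick level was much rarer among genes that females also expressed. In all, 8031 genes reached 20 CPM in both the Knox and Madison males, and for 539 of them (6.71%) the Merick male was at 25% or less of both. The proportion was 66.9% (214 of 320) where every female was under 1 CPM and 4.21% (325 of 7711) where some female reached 1 CPM. By the level of the highest female, it was 50% with 0 counts (17 of 34 genes), 68.9% above 0 and under 1 CPM (197 of 286), 53.8% from 1 to under 5 CPM (100 of 186), 14.5% from 5 to under 20 CPM (114 of 785), 1.90% from 20 to under 100 CPM (90 of 4749) and 1.05% from 100 CPM (21 of 1991). Across the female limit of 1 CPM the proportion thus fell from 68.9% to 53.8%, and it fell more steeply, to 14.5%, across 5 CPM. These proportions describe 1 Merick male library, and genes are not independent replicates.

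**Figure D4:**
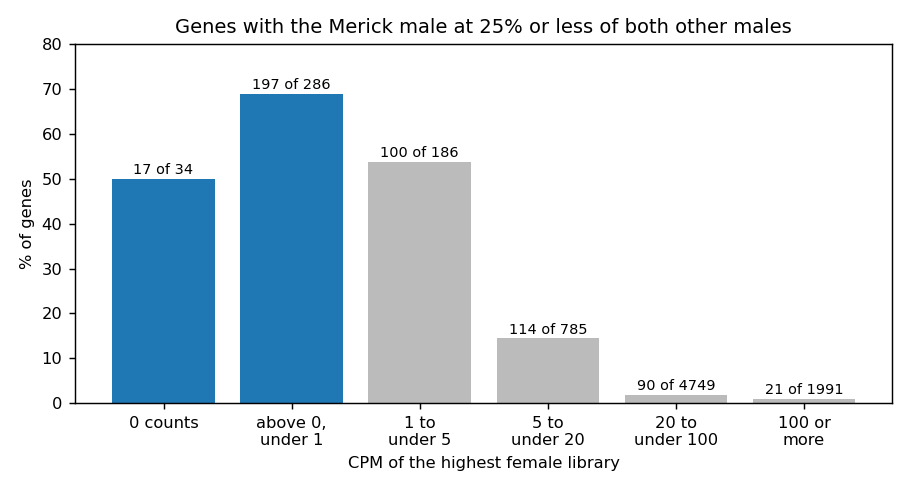
Percentage of genes whose Merick male level was at most 25% of both the Knox and the Madison male, among the 8031 genes at 20 CPM or more in both of those males, by CPM of the highest female library. Blue bars hold the members, with 17 of 34 and 197 of 286 genes, and the bars fall to 1.05% for genes at 100 CPM or more in a female.

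The test between male and female flowers, run over all genes with edgeR's quasi-likelihood method, shared its contrast with the rule and is given as a description. Reads of the males pooled, over those of the females pooled, had a median log2 ratio of 10.1 over all 214 members (4.98 to 14.6, with females of 3 counts or fewer set at 3) and of -0.04 over the 19276 tested genes. edgeR called 209 members higher in male flowers at an adjusted p under 0.05, and 12.6% of all tested genes were called higher in male. Of the rest, LOC115724620 was tested and missed the threshold (adjusted p = 0.05002 by edgeR). It had 0.760, 93.9 and 112 CPM in the Merick, Knox and Madison males and 0 counts in the females. The filter on low counts left out the other 4, LOC115697562, LOC115702207, LOC115704562 and LOC115719348, whose Merick male held 0 to 10 counts. LOC115702207 and LOC115724620 are named here because of these values.

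The number of members called depended on each library. Without the Merick male edgeR called all 214 (23.2% of tested genes were called higher in male), without the Knox male 127 of 210 (4.11%), and without the Madison male 26 of 210 (1.00%). Without the Merick, Knox or Madison female it called 9, 3 and 4 of 214 (0.933%, 0.584% and 0.572%). The fitted direction was higher in male for every tested member in each of these fits. DESeq2 called all 210 members it tested (20.3%). Only LOC115722353 and LOC115694829 were called by edgeR in all 6, genes singled out for that. LOC115722353 had 79.1, 374 and 341 CPM in the Merick, Knox and Madison males and 0.388, 0.371 and 0.314 CPM in the females (edgeR's log2 fold change 9.62 with an approximate SE of 0.88 and an adjusted p = 0.0069). That SE was not given by edgeR. It was computed as the size of the fold change over the square root of the F statistic of edgeR's test. LOC115694829 had 38.5, 187 and 189 CPM in the males and 1 count in each female (adjusted p = 0.0060 by edgeR). Both had a Merick level above 20% of the lower other male, as did 14 members in all.

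Among features the rule did not use, the gene table (NCBI RefSeq, Pink pepper assembly) held 202 of the members. It lists 200 as protein coding, 1 as a long non-coding RNA and 1 as a pseudogene. A single annotated transcript was listed for 170 of the 200 protein coding members (85%) and for 76.8% of the other male-restricted protein coding genes. It was listed for 65.1% of the 7810 protein coding genes at 20 CPM or more in the Knox and Madison males. Among all 20755 counted protein coding genes it was 73.9%. The median distance from the start to the end of the gene was 2648 bp in the protein coding members and 2475 bp in the other male-restricted genes. It was 3890 bp in those 7810 genes and 3098 bp in all counted protein coding genes.

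Members were spread over all chromosomes of that assembly. Of the 196 with a chromosome, 16 (8.16%) lay on X, against 9 of 100 other male-restricted genes (9%), 10.9% of genes at 20 CPM or more in the Knox and Madison males, and 12.4% of all counted genes with a chromosome. Members made up 0.569% of the counted genes on X, the lowest proportion of any chromosome, and 0.613% (chromosome 6) to 1.10% (chromosome 7) elsewhere. Among the 10 members with the most reads, LOC115704244 and LOC115705144 lie on chromosome 1, LOC115722684 and LOC115723474 on chromosome 9, and LOC115700926 and LOC115699721 on chromosome 8. These proportions were not tested.

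Some members were neighbours. In the gene order of the table, 16 of the 196 members with a chromosome formed 8 pairs of adjacent genes and no longer run. Members made up 0.569% (X) to 1.10% (chromosome 7) of the counted genes of a chromosome, and the number of pairs was not tested against this. Of the 8 pairs, 3 lay on chromosome 2. LOC115719056 had 51.5, 489 and 772 CPM in the Merick, Knox and Madison males, and its neighbour LOC115720578 had 5.73, 60.7 and 66.9 CPM. The Merick level was 10.5% and 9.45% of the lower other male in this pair. LOC115719119 had 0.586, 58.1 and 35.8 CPM in the same libraries, and LOC115719122 had 10.06, 974 and 986 CPM, with Merick levels at 1.64% and 1.03%. LOC115720007 had 1.15, 42.8 and 35.2 CPM, and LOC115721333 had 3.65, 213 and 114 CPM, with Merick levels at 3.27% and 3.19%. The shares were not alike in every pair of neighbours. In the other 5 pairs, named after their values were seen, the Merick levels were 1.21% and 1.30% (LOC115717555 and LOC115717554), 3.36% and 4.09% (LOC115723340 and LOC115722684), 11.1% and 6.93% (LOC115699721 and LOC115701478), 0.810% and 6.79% (LOC115724620 and LOC115694714), and 6.84% and 0.387% (LOC115697574 and LOC115697562) of the lower other male. Adjacent members thus ranged from nearly equal to far apart in their Merick share.

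Most non-member genes beside members did not share the pattern. Of 369 counted genes next to a member and not members themselves, 143 reached 20 CPM in both the Knox and Madison males. For 11 of those the Merick male was at 25% or less of both. The 6.71% of all genes at that level includes the members, which were left out of these neighbours, so the rates are not on a like basis. Among the 7711 genes at that level with some female at 1 CPM or more, none of them members, the rate was 4.21%. The 11 of 143 beside members is a higher rate than this, and the difference was not tested. Where neighbours are near-identical copies, reads that fit both may have been left unassigned, which was not stated, so their counts are uncertain. Without a stated strand setting the same holds for overlapping genes.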

How the data were processed

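RNA from 3 male and 3 female flower samples was sequenced. For each library the authors deposited a table of raw counts with 29777 gene rows and 5 closing rows that carry htseq-count row names per the files. For aligner, build, annotation and strand, nothing is given in the sources used here. Those rows (14.9% to 18.1% of listed reads) were left out. CPM were computed with Python 3.11.15 on sums of gene rows. Counts are reads without molecular identifiers, so floors of 3 counts cover counting error only.

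Sexes were compared with edgeR 4.0.16 (R 4.3.3): TMM scaling, filterByExpr (19276 genes), robust dispersions, quasi-likelihood test, Benjamini-Hochberg adjustment over all tested genes, threshold 0.05, no covariates. The procedure was tested on simulated data. DESeq2 1.42.0, other scaling and filtering, a location block, other limits of the rule and left-out libraries were alternatives. Members and lists were chosen with earlier results of these data known.

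Named genes were the 10 members with the most reads, 5 with the lowest Merick share, 4 with the highest Merick level, genes nearest the limits, 6 with the most unequal Knox and Madison levels and 3 neighbouring pairs. Planned descriptions of promoters, proteins and described gene lists were not made, because the reference used held no sequences or descriptions. The gene table matched 23096 of the 29777 rows. Its build may differ from that of the counts, so no positions are printed.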

Additional observations from a re-analysis of the deposited data

How the results depend on the processing

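The set held 171 to 263 genes under other limits (females under 0.5 or 2 CPM, males at 10 or 40 CPM, the Merick male at most 0.5 or 0.125 of the others), 232 with TMM-scaled CPM, of which 213 were among the 214, and 216 at equal depth, of which 213 were. With 1 library left out of the rule it held 220 to 320, where dropping a condition can only add genes; leaving out a male was chosen after seeing the data. With TMM scaling the summed levels were 3222, 59938 and 64595 CPM in the Merick, Knox and Madison males. Genes called between the sexes numbered 3339, and 131 to 8311 with 1 library left out, 6437 with DESeq2 and 2123 with a replicate block for location. For these counts the cause was not tested. Members called numbered 209, and 3 to 214 with 1 library left out, 210 with DESeq2 and 164 with the block, in which 7.32% of tested genes were called higher in male. The labels do not state that libraries of a location are paired. Deviations of the male and female of a location from their sex means correlated at 0.16 (Merick), 0.12 (Knox) and -0.004 (Madison). The Merick value was the highest of any male and female, while the Knox male correlated better with the Madison female (0.14). With 1 library per sex and location, a shared effect of location was not tested. Of 320 fold changes of the 32 named members that edgeR tested, over all alternatives, 193 stayed on the same side of the threshold, 127 kept only their direction, 4 of these with the block and 123 without 1 library, and none reversed. Counting neighbours over counted genes only, chosen after seeing the data, gave 20 neighbouring members, against 16. Restricted to protein coding members, 16 lay on X, as before. The planned comparison of protein identity limits was not run. For members with few Merick counts, depth limits how low a share can be read.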

Other observations

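Low Merick levels had a counterpart among genes that females also expressed. Of the 8031 genes at 20 CPM or more in the Knox and Madison males, 135 were at least 4 times higher in the Merick male than in each of those males. In 130 of them the highest female reached 100 CPM, in the other 5 it lay between 20 and 100 CPM, and none was among the 320 male-restricted genes. At 100 CPM or more in a female, the median Merick level was 138% of the lower of the other males, against 58.4% from 5 to under 20 CPM and 20.9% from 1 to under 5 CPM. These are values of 1 Merick male library and were not tested.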
